A study of Mus musculus with 4 samples.

Results

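The genes described here are 10 transcription factors that set or guard the fate of granulosa cells (GCs), the somatic cells around the oocyte. They were chosen by name, as the granulosa factors Foxl2, Gata4, Gata6, Runx1 and Runx2, the factors of the early gonad Wt1, Lhx9 and Emx2, and the Sertoli cell counterparts Sox9 and Dmrt1. All 10 are annotated as protein-coding and were found among the 55385 genes of the count table. Bulk RNA sequencing had been done on GCs of Kunming females, 12 to 14 days of age, from preantral follicles dissected out of the ovary and cultured singly for 6 days. The Control group held 2 libraries from follicles in medium alone, and the NT4 group held 2 libraries from follicles in the same medium with neurotrophin-4 (NT-4), a ligand of the receptor TRKB. Both groups received follicle-stimulating hormone, insulin, transferrin, fetuin and albumin throughout, and no genetic change is given for either. The question put to the factors was whether GCs grown with NT-4 kept the same transcript levels of these genes.

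The cells were those left after the oocyte had been removed, so each library is a mixture of whatever somatic cells adhered to it, and in such bulk samples fewer cells of a type and less RNA per cell cannot be told apart. The study describes the 2 samples of a group as coming from independent experiments, and the labels do not say which experiment or animals gave each library. The p-values measure the spread between these libraries. The granulosa label was set beside 12 markers, Foxl2 among them, of which 12 were detected and tested. Their summed level was 12665 to 15824 CPM (counts scaled to a fixed library total) over the Control libraries and 10889 to 17305 CPM over the NT4 libraries. All 12 markers of theca and stroma, the cells outside the follicle wall, and all 10 oocyte markers were detected and tested too. Detection alone therefore does not identify the cells. Theca and stroma markers summed to 1514 to 1549 CPM in Control and 1740 to 2184 CPM in NT4. Values are given in the order Control 1, Control 2, NT4 1, NT4 2. Total counts ran from 49520092 to 78704020 per library. As 1 read pair appeared to add about 4 counts, these totals correspond to an estimated 12380023 to 19676005 read pairs. The libraries also separated by their replicate numbers. The libraries numbered 1 and those numbered 2 did not overlap for many genes, with 26.7% of the 19259 genes tested higher in number 1 and 21.8% lower, 48.6% in all.

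In the developing gonad, WT1, LHX9, EMX2 and GATA4 act in the bipotential ridge before sex is decided. SOX9 then drives the Sertoli cell fate of the testis and DMRT1 maintains it, while FOXL2 and RUNX1 act on the granulosa side in the ovary. The balance is held after birth, since loss of FOXL2 from adult GCs is known to switch on Sertoli genes, and GATA4 and GATA6 are known to drive steroidogenic and inhibin genes in follicles.

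Levels between genes were compared per length, as CPM per kilobase of exon. Gata4 had the highest mean level over the 4 libraries at 97.0 CPM per kilobase, and it ranked 529 among all genes of the table. Foxl2 came next at 62.9 (rank 834), then Gata6 at 14.5 (rank 3935) and Emx2 at 5.78 (rank 7520). The lower levels belonged to Wt1 at 2.68, Runx1 at 1.98, Sox9 at 0.635, Lhx9 at 0.319 and Runx2 at 0.279 CPM per kilobase, and Dmrt1 had no count in any library. For most neighbours in this order the lowest library of the higher gene stayed above the highest library of the lower gene. The pairs whose ranges overlapped were Wt1 with Runx1, at a ratio of means of 1.35, and Lhx9 with Runx2, at 1.14, so their order was not settled by these libraries. The step from Foxl2 to Gata6 was 4.33-fold and that from Runx1 to Sox9 was 3.11-fold.

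**Figure D1:**
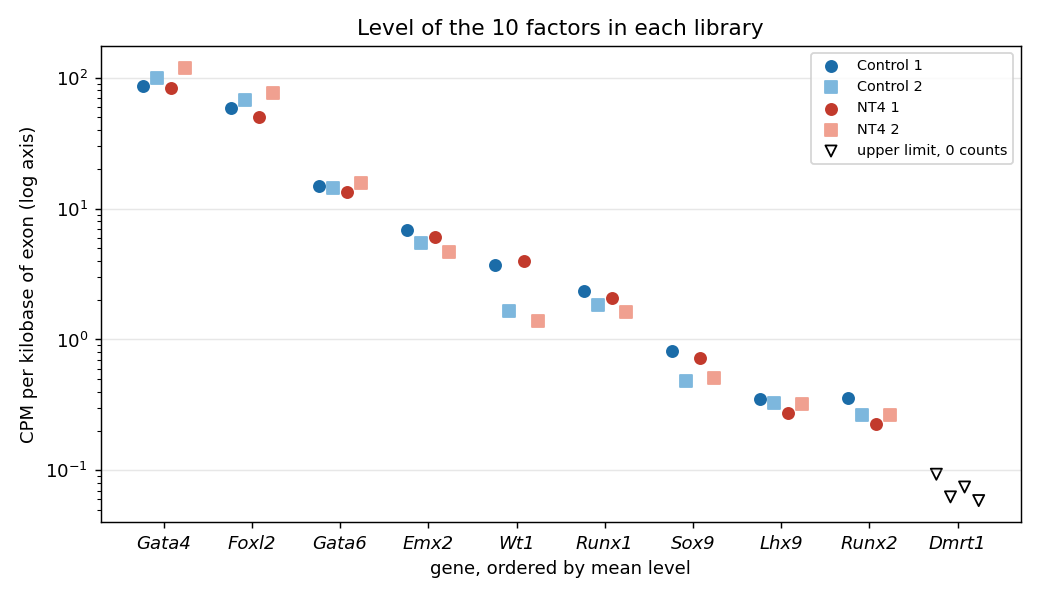
Level of each factor in CPM per kilobase of exon (log axis), 1 point per library, with genes ordered by mean level and open triangles at the upper limit that a count of 0 allows for Dmrt1. Gata4 and Foxl2 lie above Gata6 in every library, and the points of Sox9 run from 0.485 to 0.820 CPM per kilobase.

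The main comparison was NT4 against Control. Of the 10 factors, 9 passed the filter on low counts and were tested, and none of the 9 passed the test for a difference between the groups. Their log2 fold changes ran from -0.31 for Runx2 to 0.14 for Gata4, with 4 above 0 and 5 below, and each of the 9 lay within 1 standard error (SE) of 0. The median of the 9 was -0.06, beside 0.0045 over all genes tested. With edgeR's quasi-likelihood test and Benjamini-Hochberg adjustment over all genes, 0 of 9 were called at an adjusted p under 0.05, against a background of 0.0% of genes. At an unadjusted p under 0.05 the count was again 0 of 9, where 383 genes, or 1.99% of those tested, passed. By the criterion in the study's methods (a fold change over 2 or below 0.5 with p below 0.05, read here as the unadjusted p, although the methods also describe Benjamini-Hochberg adjustment), 0 of 9 passed, beside 1.08% of genes. Over all genes the DESeq2 Wald test called 63, edgeR's exact test 57 and limma voom 0, and no factor was called under any alternative run.

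What these libraries could have shown is given by the intervals. In the model with the group alone, for 6 of the 9 factors the 95% interval of the fold change excluded a 2-fold difference in both directions. The exceptions were Wt1, Runx2 and Sox9. A p that misses the threshold does not show equal levels. For 7 of the 9 factors the difference between the groups was smaller than the gap between replicates in both groups. Leaving out each library in turn changed the sign for 6 factors, namely Foxl2, Gata4, Gata6, Wt1, Runx1 and Sox9. The widest swing was that of Wt1, from -0.91 without NT4 1 to 0.68 without Control 1.

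**Figure D2:**
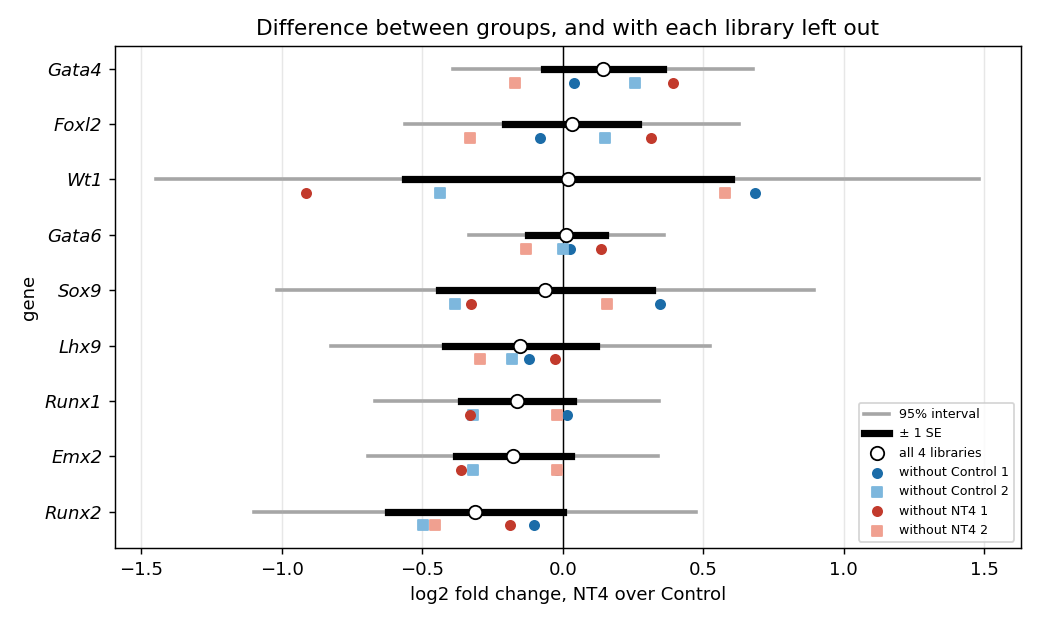
Log2 fold change of NT4 over Control for the 9 factors tested, with all 4 libraries (open circles, black bars of 1 SE, grey bars of the 95% interval) and with each library left out (coloured points). All 9 intervals cross 0, and that of Wt1 is the widest, from -1.45 to 1.48.

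Foxl2 encodes the forkhead factor that keeps GCs from a Sertoli fate, and the gene lies at chr9:98955288-98958543 (GRCm38, plus strand) as a single exon. It stood at 190.1 and 218 CPM in the Control libraries and 163 and 248 CPM in the NT4 libraries. The lowest and the highest library were both NT4, so the NT4 pair enclosed the Control pair. The group means were 204 ± 20.0 CPM for Control and 205 ± 60.5 CPM for NT4 (SD, n = 2). The log2 fold change was 0.03 with an SE of 0.24, a 95% interval of -0.56 to 0.63 and an adjusted p of 0.9999 by edgeR's quasi-likelihood test.

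Gata4, the zinc finger factor with known targets among steroidogenic and inhibin genes, lies at chr14:63198922-63271692 on the minus strand. Its values were 339 and 386 CPM in the Control libraries and 323 and 466 CPM in the NT4 libraries. Again both extremes were NT4 libraries and the groups overlapped. The means were 363 ± 32.9 CPM for Control and 394 ± 101 CPM for NT4 (SD, n = 2), for a log2 fold change of 0.14 (SE 0.21) and an interval of -0.39 to 0.68. Without NT4 1, Gata4 reached a log2 fold change of 0.39 at an unadjusted p of 0.0493 in edgeR, the only one of 140 alternative values of the factors with an unadjusted p under 0.05, and its sign turned to -0.17 without NT4 2.

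Gata6, the second GATA factor of the follicle, lies at chr18:11052064-11085635 on the plus strand. It was the steadiest of the factors. Its level was 96.6 and 93.0 CPM in the Control libraries and 86.6 and 102 CPM in the NT4 libraries, and the highest library was 1.18 times the lowest. The NT4 libraries lay on either side of the Control libraries. The log2 fold change was 0.01 with an SE of 0.14 and an interval of -0.33 to 0.36, the narrowest of the 9.

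Runx1 encodes a RUNX factor known to act with FOXL2 in the fetal ovary, at chr16:92601466-92826149 on the minus strand. It measured 28.4 and 22.1 CPM in the Control libraries and 24.9 and 19.6 CPM in the NT4 libraries. The values interleaved, with the highest in Control and the lowest in NT4. Means were 25.3 ± 4.49 CPM for Control and 22.3 ± 3.70 CPM for NT4 (SD, n = 2), and the log2 fold change was -0.16 (SE 0.20).

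Runx2, the RUNX factor best known from bone and from luteinizing GCs, lies at chr17:44495987-44814797 on the minus strand. Its values were low at 3.15 and 2.35 CPM in the Control libraries and 2.0 and 2.35 CPM in the NT4 libraries. Control 1 stood above the others, and Control 2 and NT4 2 were close to each other. These values rest on an estimated 31.0 to 46.3 read pairs per library. Runx2 had the largest difference of the 9 factors, a log2 fold change of -0.31, with an SE of 0.31, an interval of -1.10 to 0.48 and an unadjusted p of 0.362 in edgeR.

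The start regions of the RUNX genes are shown because these 2 members carry matches to the motif of their own family at nearly the same place. RefSeq promoter windows (GRCm38.p6, from 250 bases before to 50 after a start) were found for 5 of the 10 factors, with 6 windows in all. The 30 bases below begin 20 bases after the distal start of Runx1 and 15 bases after the start of Runx2, read on the minus strand, with the letters ACCACA (the reverse complement of the RUNX motif TGTGGT) in capitals.
Runx1 distal start, chr16:92826025-92826054: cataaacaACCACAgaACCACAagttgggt
Runx2, chr17:44814583-44814612: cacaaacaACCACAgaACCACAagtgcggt
These windows share a run of 22 bases, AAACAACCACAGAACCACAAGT, that covers both matches. The motif was searched on both strands, and 16.8% of 32851 RefSeq windows held at least 1 match. Runx2 held another match further upstream, and the proximal window of Runx1 held none of the motifs searched. A match is a description of letters and was not tested as a site in these cells. In them Runx1 had 6.07 to 9.01 times the level of Runx2, per length and with a prior count of 2 added.

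For Foxl2 and Lhx9, 30 bases are shown of the windows with matches to a GC box (GGGCGG) and to the GATA motif (TGATAA, here read as its reverse complement TTATCA), since Foxl2 was the second most abundant factor, Lhx9 nearly the least, and the GATA factors were high in all libraries. Capitals mark the matches.
Foxl2, plus strand, chr9:98955392-98955421: ctggcctGGGCGGggagGGGCGGcggggcc
Lhx9, minus strand, chr1:138842486-138842515: cctcctactaaaTTATCAaaaatgggctgg
A GC box was found in 35.7% of all windows and a GATA match (AGATAA or TGATAA) in 18.6%, so neither set these genes apart. The matches were not tested as sites, and their relation to the levels was not tested. The window of Emx2 also held 2 GC box matches, which overlap each other. The annotated gene begins 319 bases upstream of the RefSeq start of Foxl2 and 6133 bases upstream of that of Lhx9, so the Foxl2 stretch lies within its annotated exon and the Lhx9 stretch within the annotated gene. No window of a factor matched the forkhead letters GTAAACA, found in 3.65% of windows, or the TATA box letters TATAAA, found in 13.6%.

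Wt1 encodes the zinc finger factor that is needed to form the gonad, and it lies at chr2:105126529-105173616 on the plus strand. It varied more between libraries than any other tested factor. It stood at 22.8 and 10.3 CPM in the Control libraries and 24.6 and 8.56 CPM in the NT4 libraries, and both libraries numbered 1 lay above both numbered 2. The highest library was 2.88 times the lowest, on an estimated 169 to 382 read pairs per library. Means were equal at 16.6 ± 8.86 CPM for Control and 16.6 ± 11.4 CPM for NT4 (SD, n = 2). In the model with the group alone, the log2 fold change of 0.02 had an SE of 0.58 and an interval from -1.45 to 1.48.

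Emx2, a homeobox factor of the early urogenital ridge at chr19:59458372-59465357 (plus strand), measured 20.6 and 16.4 CPM in the Control libraries and 18.3 and 14.1 CPM in the NT4 libraries. The groups interleaved. Means were 18.5 ± 2.96 CPM for Control and 16.2 ± 2.95 CPM for NT4 (SD, n = 2), for a log2 fold change of -0.18 (SE 0.20).

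Lhx9, a LIM homeobox factor of the gonadal ridge at chr1:138825186-138848577 (minus strand), was at 3.31 and 3.11 CPM in the Control libraries and 2.61 and 3.08 CPM in the NT4 libraries. It was the 1 factor of the 9 tested whose groups did not overlap, with both NT4 libraries under both Control libraries, where 26.6% of all genes tested did not overlap in either direction. The gap between the nearest libraries was small against the estimated 40.5 to 60.5 read pairs behind each value. The log2 fold change was -0.15 with an SE of 0.27 and an unadjusted p of 0.597 in edgeR.

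Sox9 encodes the factor that drives the Sertoli fate, at chr11:112782224-112787760 on the plus strand. Its transcripts were present at a low level, with 3.39 and 2.01 CPM in the Control libraries and 3.0 and 2.10 CPM in the NT4 libraries, from an estimated 37.0 to 46.5 read pairs. The libraries numbered 1 were the higher ones in both groups. Means were 2.70 ± 0.980 CPM for Control and 2.55 ± 0.640 CPM for NT4 (SD, n = 2), and the log2 fold change was -0.06 (SE 0.38, interval -1.02 to 0.89).

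Dmrt1, which maintains the Sertoli fate in the testis, lies at chr19:25505618-25604329 on the plus strand. No count was recorded for Dmrt1 in any of the 4 libraries, and the filter removed it before testing. A count of 0 allows up to 3 read pairs, which is 0.242 and 0.163 CPM in the Control libraries and 0.194 and 0.152 CPM in the NT4 libraries. These limits cover counting error only.

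Ratios within a library were then compared for 4 pairs, since they do not depend on library size. They were taken from log2 CPM with a prior count of 2, so they differ slightly from ratios of the levels given above. Per length, Foxl2 exceeded Sox9 by 70.5-fold in Control 1, 136-fold in Control 2, 68.1-fold in NT4 1 and 148-fold in NT4 2. The granulosa factor thus stood far above the Sertoli factor in all 4 libraries, by more in those numbered 2. Gata4 exceeded Gata6 by 5.86-fold, 6.92-fold, 6.22-fold and 7.63-fold in the same order, and Runx1 exceeded Runx2 by 6.58-fold, 6.84-fold, 9.01-fold and 6.07-fold. Wt1 exceeded Lhx9 by 10.5-fold, 5.05-fold, 14.3-fold and 4.24-fold. The groups overlapped for each of the 4 ratios. The NT4 minus Control differences of the log2 ratio were 0.04 for Foxl2 over Sox9, 0.11 for Gata4 over Gata6, 0.14 for Runx1 over Runx2 and 0.10 for Wt1 over Lhx9. The exact two-sided permutation p was 0.667 for Gata4 over Gata6 and 1 for the others, where the smallest p that 2 against 2 libraries allow is 0.333.

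The factors were also read by replicate number. For 6 of the 9 tested factors, both libraries of one number lay above both of the other, beside 48.6% of all genes tested, while 1 of 9 did not overlap by group, beside 26.6%. All genes thus separated more often by number than by group, and the counts of so few factors are not read as particular to them. Wt1, Sox9, Runx1 and Emx2 were the 4 higher in number 1, beside 26.7% of all genes tested, and Foxl2 and Gata4 were the 2 lower in number 1, beside 21.8%. The ratio of the mean of number 1 to that of number 2 was 2.52 for Wt1 (23.7 against 9.43 CPM), 1.56 for Sox9, 1.28 for Runx1 and 1.27 for Emx2. It was 0.778 for Gata4 and 0.756 for Foxl2. The other factors stayed near even, at 1.10 for Runx2, 0.959 for Lhx9 and 0.940 for Gata6. What the numbers stand for is not given in the labels, and with 2 libraries of each number this split is given as a description, without a test.

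**Figure D3:**
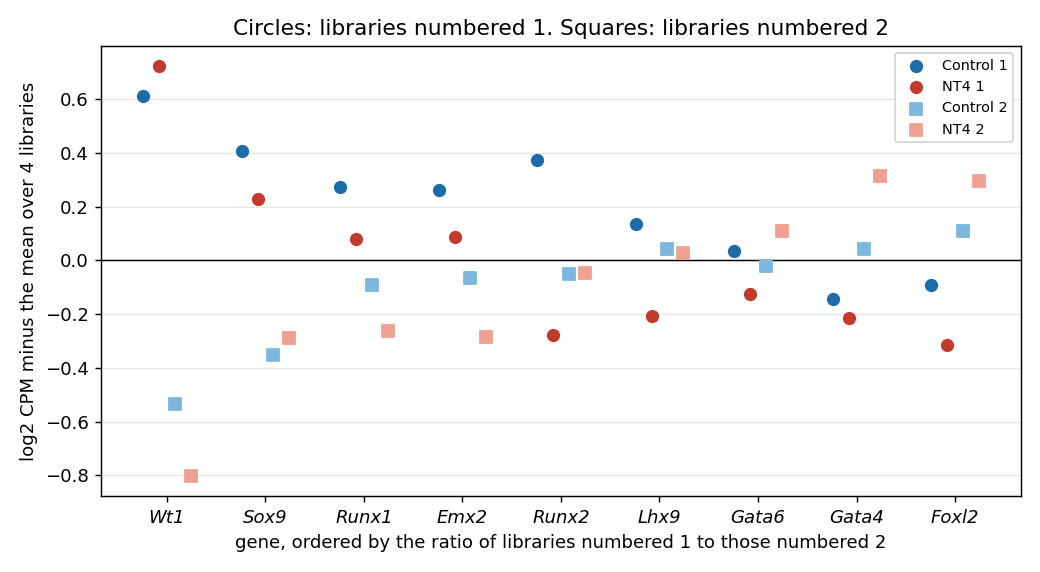
Deviation of each library from the mean log2 CPM of the gene over the 4 libraries, for the 9 factors tested, with circles for libraries numbered 1 and squares for those numbered 2. Wt1 shows the widest gap between circles and squares (2.52-fold), and Foxl2 and Gata4 show the opposite order at 0.756-fold and 0.778-fold.

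The markers of granulosa cells were read in the same way. Of the 12 granulosa markers, 9 were lower in number 1, beside 21.8% of all genes, and 3 were higher, beside 26.7%, with Foxl2 one of the 9. Their summed level was 12665 and 15824 CPM in the Control libraries and 10889 and 17305 CPM in the NT4 libraries. The summed level of 7 Sertoli markers was 83.5 and 90.1 CPM in the Control libraries and 84.4 and 34.2 CPM in the NT4 libraries, and most of it came from Dhh, a hedgehog ligand that GCs also express, while Cst9 and Dmrt1 were at 0. The part of these markers in the split of the factors was not tested.

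Paralogs were examined to see which other members of each family the cells transcribed. In the GATA family, Gata4 and Gata6 made up 99.5% of the summed per-length level, and of the other 4 genes only Gata1 reached a mean of 1 CPM. Runx1 and Runx2 made up 99.5% of the RUNX family, where Runx3 averaged 0.0605 CPM. Foxl2 held 99.9% of its pair with Foxl1, and Emx2 held 99.9% of its pair with Emx1. These families were thus read almost wholly through the factors named here.

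Per length, the other families were led by genes outside the group. Of 18 other SOX genes, 8 reached a mean of 1 CPM, and Sox9 made up 0.508% of the family's per-length level. Sox4, a SoxC factor of many progenitor cells, was the highest at 507 and 393 CPM in the Control libraries and 558 and 313 CPM in the NT4 libraries, with both libraries numbered 1 above those numbered 2. Sox12, another SoxC gene, showed that order reversed and far wider, at 5.63 and 132 CPM in the Control libraries and 7.21 and 139 CPM in the NT4 libraries. Sox8, the close relative of Sox9 in the Sertoli cell, stayed at 1.76 and 3.28 CPM in the Control libraries and 2.10 and 2.59 CPM in the NT4 libraries. Sox5 was under Control in both NT4 libraries, at 41.2 and 37.8 CPM against 47.9 and 47.2, with a log2 fold change of -0.25 (SE 0.13) and an unadjusted p of 0.110 in edgeR. The other 4 SOX genes above 1 CPM were Sox11, Sox13, Sox18 and Sox30, and their groups overlapped.

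Among the DMRT genes only Dmrta1 reached a mean of 1 CPM, at 6.95 and 3.78 CPM in the Control libraries and 9.66 and 2.40 CPM in the NT4 libraries, and it too was higher in the libraries numbered 1. Lhx9 made up 34.9% of the summed per-length level of the LIM homeobox family. Lhx8, an oocyte factor, was higher than Lhx9 per length, at 0.449 against 0.319 CPM per kilobase. In CPM it was lower, at a mean of 1.14 against 3.03. The means of the 10 remaining genes were at most 0.172 CPM. Wt1 was compared with the EGR genes, which share its zinc finger type, and made up 1.33% of their summed per-length level. Egr1, an immediate-early gene, led that family at 807 and 679 CPM in the Control libraries and 693 and 1173 CPM in the NT4 libraries, with a log2 fold change of 0.35 (SE 0.27) and overlapping groups. Egr2, Egr3 and Egr4 also reached a mean of 1 CPM, at log2 fold changes of -0.37 (SE 0.57), 0.41 (SE 0.48) and 0.46 (SE 0.35), and their groups overlapped too.

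**Figure D4:**
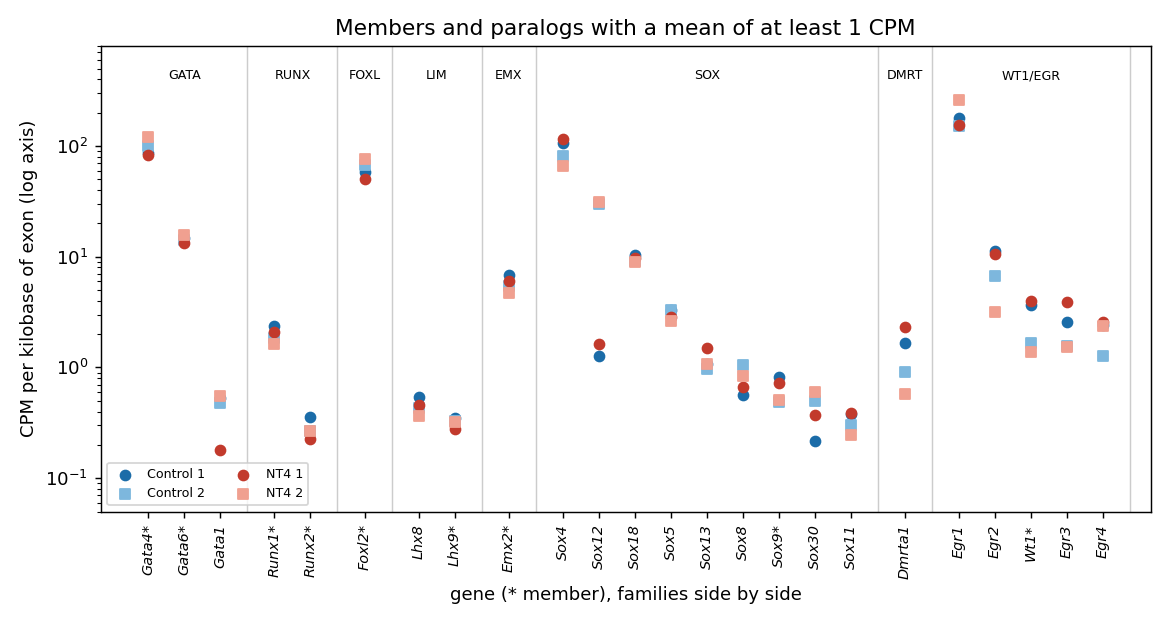
Level of the members (asterisks) and of every paralog with a mean of at least 1 CPM, in CPM per kilobase of exon on a log axis, 1 point per library, with families side by side. Gata1 and the paralogs of Emx2, Foxl2 and Runx1 are far under the members or off the plot, while Sox4 and Egr1 stand above Sox9 and Wt1, and Sox12 is split between libraries numbered 1 and 2.

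The partners of the factors and other genes needed to form the gonad were read next. Of 17 listed genes 16 were tested, and 10 had a log2 fold change above 0 and 6 below, with a median of 0.03. The most abundant were Nr5a1, the nuclear receptor that works with GATA4 and WT1, at 197, 246, 197 and 297 CPM in Control 1, Control 2, NT4 1 and NT4 2, then the growth factor receptor gene Igf1r and Cbfb, the partner subunit of RUNX factors. Igf1r measured 241, 218, 264 and 162 CPM in that order, and Cbfb measured 143, 145, 145 and 119 CPM. The groups overlapped for these 3 genes, while 5 of the 16 tested did not overlap (Six4, Tcf21, Zfpm1, Insr and Map3k4), beside 26.6% of all genes. Tcf21, a helix-loop-helix factor of gonadal mesenchyme, was the 1 gene of the 16 with an unadjusted p under 0.05 (0.0369), beside 1.99% of all genes, at 16.4, 11.8, 21.0 and 20.1 CPM, a log2 fold change of 0.57 (SE 0.21) and an adjusted p of 0.9999 by edgeR's quasi-likelihood test. Both NT4 libraries were above both Control libraries.

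Tcf21 is also one of 12 markers listed for theca and stroma, the cells outside the follicle wall. All 12 had a log2 fold change above 0, with 7 not overlapping between the groups, beside 26.6% of all genes, and 4 at an unadjusted p under 0.05 in edgeR (Col3a1, Acta2, Tcf21 and Dcn), beside 1.99%, and 0 of 12 were called after adjustment. Their summed level ran from 1514 to 1549 CPM in Control and from 1740 to 2184 CPM in NT4, and none of the 12 was at 0. Markers of macrophages and blood summed to 3.93 to 5.39 CPM in Control and 6.76 to 6.84 CPM in NT4, with Tyrobp at 0. These low sums did not overlap, and 3 of the 7 markers tested did not overlap, beside 26.6% of all genes. The sums of surface epithelium (35.0 to 44.0 against 39.0 to 44.1 CPM), endothelium (19.5 to 26.3 against 21.0 to 28.7 CPM), oocyte (73.5 to 107 against 86.5 to 88.0 CPM) and erythroid markers (3.23 to 5.67 against 4.29 to 5.13 CPM) overlapped between the groups. Gene by gene, 3 of the 7 endothelial markers tested did not overlap, and 0 of those tested for surface epithelium, oocyte and erythroid cells. Outside theca and stroma, Tek, an endothelial receptor gene, was the 1 marker at an unadjusted p under 0.05 in edgeR (0.0366). It was 1 of the 7 endothelial markers tested, beside 1.99% of all genes. Its level was low, at 0.162 and 0.190 CPM in the Control libraries and 0.952 and 0.432 CPM in the NT4 libraries. The part of these cells in the levels of the factors was not tested.

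Genes of the ovarian pathway, from WNT4 and R-spondin signalling to granulosa products, were listed as the side that FOXL2 belongs to. Of 24 genes 23 were tested, with 11 above 0, 12 below, a median log2 fold change of -0.03, and 0 at an unadjusted p under 0.05 in edgeR's quasi-likelihood test, beside 1.99% of all genes. By replicate number 10 were higher in number 1, beside 26.7% of all genes, and 10 lower, beside 21.8%. The most abundant were the inhibin and activin subunit genes. Inha was at 6716 and 7979 CPM in the Control libraries and 5855 and 8687 CPM in the NT4 libraries, and Inhbb at 1531, 2689, 1053 and 3157 CPM in that order. Inhba was at 1607, 2157, 1211 and 2410 CPM. The groups overlapped for these genes.

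Genes of the Sertoli and testis pathway gave a like picture. Of 20 listed genes 16 were tested, with 9 above 0, 7 below, a median of 0.05, and 0 at an unadjusted p under 0.05, beside 1.99% of all genes. Sry, the testis-determining gene of the Y chromosome, and Cst9 had no count in any library. The most abundant were Clu, which encodes clusterin, at 858, 790.1, 911 and 749 CPM in Control 1, Control 2, NT4 1 and NT4 2, and Amh, the anti-Müllerian hormone gene made by both Sertoli cells and GCs. Amh stood at 303, 151, 393 and 89.6 CPM, in the order of libraries that Wt1 also had. Mro followed at 109, 118, 117 and 132 CPM.

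Genes reported as targets of the factors were counted last. Of 17 listed, 17 were tested, with 11 above 0, 6 below, a median log2 fold change of 0.06, and 0 at an unadjusted p under 0.05, beside 1.99% of all genes. By number, 10 of the 17 were lower in number 1, beside 21.8% of all genes, and 2 were higher, beside 26.7%. The list shares genes with the ovarian one, Inha and Inhbb among its top 3. Amh is on the Sertoli list as well, Nr5a1 on that of the partners and Lhcgr on that of theca and stroma markers. The lists are therefore not separate readings. Hsd3b1, a steroidogenic enzyme gene, completed these 3 at 2775 and 3879 CPM in the Control libraries and 2439 and 4554 CPM in the NT4 libraries, and its groups overlapped.

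Genes that overlap a factor were read because it is not stated whether counting used strand, in which case reads of both strands cannot be told apart. Foxl2os, a processed transcript opposite Foxl2 with 12 shared exon bases, was at 69.5 and 79.6 CPM in the Control libraries and 57.5 and 71.1 CPM in the NT4 libraries. Foxl2 exceeded it by 2.74-fold, 2.74-fold, 2.83-fold and 3.49-fold in that order, so the ratio was highest in NT4 2. The log2 fold change of Foxl2os was -0.19 (SE 0.17), and summing it with Foxl2 gave a log2 fold change of -0.02. Emx2os, antisense to Emx2 with 264 shared exon bases, was low at 1.31 to 1.94 CPM. For Gata6 the transcript 1010001N08Rik shares 93 exon bases and was at 6.23 to 10.3 CPM. Opposite Runx2, Runx2os1 shares 519 exon bases and had 4 counts in NT4 2 alone, as had Runx2os2, and Runx2os3 had none. The rRNA gene n-R5s27, on the same strand as Runx2, had no count. Gm26626, opposite Runx1 with 106 shared exon bases, had no count. Supt3, whose body overlaps Runx2 without sharing exon bases, was at 40.1 to 51.6 CPM. Foxl2os, Emx2os, 1010001N08Rik and Supt3 were tested, and 0 of these 4 were called at an adjusted p under 0.05 (0.0% of all genes) or had an unadjusted p under 0.05 (1.99%) in edgeR's quasi-likelihood test. The others were too low to be tested.

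Genes with the most similar pattern were sought among 12554 protein-coding genes with a mean of at least 1 CPM, by the Euclidean distance of centred log2 CPM over the 4 libraries. For Foxl2 the nearest were Endog at 0.0224, Uqcc2 at 0.0228 and Fabp5 at 0.0244, and 477 genes lay within 0.2. For Sox9 they were Lysmd3 at 0.0519, Axin2 at 0.0607 and Prg4 at 0.0653, with 80 within 0.2. With 4 libraries many genes share any given order, so the likeness is a description of these libraries.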

How the data were processed

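Per the study's methods, the authors filtered reads with Cutadapt, mapped them with HISAT2 to a mouse genome of Ensembl and estimated expression with StringTie and ballgown. The submitters' processing notes also name FastQC and edgeR. The values the authors deposited are whole numbers per gene that are not scaled to a common total, and they were handled like estimated counts. The step from StringTie to counts, and whether counting used strand, are not given in the sources used here. The dUTP step marks strand. The table and the files of single libraries held identical counts in 4 of 4 libraries.

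Of 55385 identifiers, 55144 matched GENCODE release M21 (GRCm38), which gave symbols, positions and exon lengths. Groups came from the sample titles. NT4 was tested against Control, two-sided, in R 4.3.3 by edgeR 4.0.16 and its quasi-likelihood test (TMM normalization, the default filter on low counts, Benjamini-Hochberg adjustment over 19259 genes, group alone in the model), with limma 3.58.1 and DESeq2 1.42.0 for alternatives. The fit was tested on simulated data. CPM used library totals, log2 CPM a prior count of 2, and a count of 0 a limit of 3 read pairs at 4 counts each. Of genes with 1 to 12 counts, 45.4% to 46.2% sat at 4, 8 or 12.

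All 10 factors were named whatever their values. Of each list, the 3 genes with the highest mean CPM (marker lists, given as sums, excepted) and those with an unadjusted p under 0.05 were named, with paralogs at a mean of at least 1 CPM, genes that overlap a factor, and the 3 genes most like Foxl2 and like Sox9. Lists of partners, ovarian genes, Sertoli genes, reported targets, families and cell markers were written by hand. The members, lists and rules were chosen with earlier results of these data known. The alternatives, whose effect is given at the end, covered normalization, filtering, test, counts divided by 4, the replicate block, GC content, overlapping genes and leaving out each library. RefSeq sequences (GRCm38.p6) were matched by symbol. No window was found for Gata4, Gata6, Wt1, Sox9 and Dmrt1.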

Additional observations from a re-analysis of the deposited data

How the results depend on the processing

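No factor was called at an adjusted p under 0.05 in 140 alternative values of the 9 tested factors, with a lowest adjusted p of 0.910, and 98 of the 104 values that kept all libraries kept their direction. The 6 that turned were Foxl2 with the GC trend removed (-0.041) or with Foxl2os summed (-0.024), Gata6 with library totals (-0.0094) or the GC trend removed (-0.021), and Wt1 with limma voom (-0.042) or the replicate block (-0.057), each close to 0. With 1 library left out, the log2 fold change ran from -0.33 to 0.31 for Foxl2, -0.17 to 0.39 for Gata4, -0.13 to 0.14 for Gata6, -0.91 to 0.68 for Wt1, -0.33 to 0.015 for Runx1 and -0.38 to 0.35 for Sox9, while Runx2 (-0.50 to -0.10), Lhx9 (-0.29 to -0.03) and Emx2 (-0.36 to -0.02) stayed below 0. The lone library of a group was then assumed to vary like the other group.

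The log2 ratio differences ran from -0.52 to 0.60 for Foxl2 over Sox9 (-0.013 with overlapping genes summed), -0.034 to 0.26 for Gata4 over Gata6, -0.14 to 0.43 for Runx1 over Runx2 and -0.78 to 0.97 for Wt1 over Lhx9 with 1 library left out. List medians ran from -0.090 to 0.053 for ovarian genes, -0.077 to 0.075 for Sertoli genes, -0.13 to 0.27 for reported targets and -0.10 to 0.19 for partners.

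Over all genes, 0 were called at an adjusted p under 0.05, against 10 without a filter, 63 with DESeq2, 57 with edgeR's exact test and 0 to 37 with 1 library left out (12 without Control 1, 37 without Control 2). The study's criterion, with the p read as unadjusted, passed 208 genes, against 345 without a filter, 87 at a CPM of at least 1 in 2 libraries, 334 with DESeq2, 119 with counts divided by 4 and 341 to 512 with 1 library left out (406 without Control 1, 512 without Control 2, 341 without NT4 1, 392 without NT4 2). The cause of these shifts was not tested. The replicate number as a block raised the genes at an unadjusted p under 0.05 from 383 to 580 and called no factor. It narrowed the SE of Wt1 from 0.58 to 0.16 and that of Sox9 from 0.38 to 0.26, so their wide intervals hold for the model without the block. Same-numbered deviations correlated at a Pearson r of 0.14 and a Spearman rho of 0.26 across 19259 genes, which are not independent, and the labels do not say that the numbers pair the libraries. Runx2, Lhx9 and Sox9 rest on few read pairs, and for Dmrt1 only an upper limit can be given. With counts divided by 4 the SE went from 0.31 to 0.32 for Runx2, 0.27 to 0.28 for Lhx9 and 0.38 to 0.39 for Sox9. The part of depth in these SEs was not tested.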
